A study of Mus musculus with 2 samples.

Results

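In the KPR restored library, the mRNAs of both ferritin chains and of heme oxygenase 1 were higher than in the KPR- library, while the mRNAs of the transferrin receptor and of the iron exporter were lower. These transcripts belong to a group of 10 genes of iron import (*Tfrc*, *Slc11a2*), iron storage (*Fth1*, *Ftl1*, *Ncoa4*), iron export (*Slc40a1*), iron sensing (*Ireb2*, *Aco1*) and heme breakdown (*Hmox1*, *Hmox2*), out of 23183 genes measured. The genes were chosen by their function in iron handling, with the FPKM values of these libraries already known, so their levels and differences are given as a description. All 10 had a row in both libraries and a mean of at least 1 FPKM (fragments per kilobase of transcript, scaled to the mapped fragments of the library).

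The cells are an immortalized line derived from lung cancers of KPR L/F mice that were not given tamoxifen, TAM(-). Such mice carry an oncogenic K-Ras allele behind a LoxP-Stop-LoxP cassette, floxed p53, Runx3 flox/FSF alleles, a Tomato reporter and the recombinase Flp ERT2, and inhaled Ad-Cre switches on K-Ras and deletes p53 and the floxed Runx3 allele. KPR- cells therefore lack p53 and have Runx3 off (RUNX3 -/-), and KPR restored cells (RUNX3 -/+) were made from them with 4-hydroxytamoxifen (4-OHT), which activates Flp ERT2 and removes the Frt-Stop-Frt cassette from the remaining allele. The sample titles place KPR- at 0 h and KPR restored at 16 h and list 1 μM 4-OHT for both, with 1 library per condition and therefore no replicate check. The effect of Runx3 and that of 4-OHT or of hours in culture cannot be told apart here.

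Cells take up iron bound to transferrin through the receptor encoded by *Tfrc*, move it out of endosomes through the transporter encoded by *Slc11a2*, store it in ferritin shells built of heavy (*Fth1*) and light (*Ftl1*) chains, and export it through ferroportin (*Slc40a1*). The iron regulatory proteins, encoded by *Aco1* and *Ireb2*, bind a short hairpin in mRNAs called the iron-responsive element (IRE) when iron is scarce. Bound to an IRE in the 5′ untranslated region (UTR) they block translation, and bound to the elements in the 3′ UTR of *Tfrc* they protect that mRNA from decay. Heme oxygenases open the heme ring and free its iron, and *Hmox1* is the inducible form known for its response to oxidative stress, whereas *Hmox2* is made constitutively.

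The elements are shown because they are the known point of control of these mRNAs by iron. Transcripts of the 10 genes with a RefSeq counterpart in GENCODE M21 (GRCm38, the build called mm10 in the processing notes) were searched for a C, 5 bases, the loop CAGTGN and 5 bases that pair with the first 5. At least 4 of the 5 pairs were required, with G-T pairs allowed, on the sense strand. In the sequences the capitals mark the bulged C and the 6 bases of the loop. An element with another loop would not be found. The letters A to D after *Tfrc* give only the order of its matches and are not established names of elements.

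The elements of the ferritin chains and of ferroportin lie in 5′ UTRs, at chr19:9982732-9982760 (plus strand) for *Fth1*, chr7:45459779-45459807 (minus strand) for *Ftl1* and chr1:45925465-45925493 (minus strand) for *Slc40a1*.
Fth1: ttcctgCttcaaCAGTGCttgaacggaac
Ftl1: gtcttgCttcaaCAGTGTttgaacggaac
Slc40a1: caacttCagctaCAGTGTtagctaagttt

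The elements of the import genes lie in 3′ UTRs. Those of *Tfrc* are at chr16:32631219-32631247, chr16:32631598-32631626, chr16:32631663-32631691 and chr16:32631710-32631738 (plus strand), in that order, and that of *Slc11a2* is at chr15:100395153-100395181 (minus strand).
Tfrc A: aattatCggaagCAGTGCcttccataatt
Tfrc B: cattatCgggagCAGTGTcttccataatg
Tfrc C: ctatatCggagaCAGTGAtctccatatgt
Tfrc D: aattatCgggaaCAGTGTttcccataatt
Slc11a2: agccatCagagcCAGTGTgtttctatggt

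Of the 8 matches in 5 of the 10 genes, all but that of *Slc11a2* had 5 of 5 pairs, and the *Slc11a2* match had 4. The windows of *Fth1* and *Ftl1* were identical at 26 of 29 bases. A match with 5 pairs was found in 1.24% of 20591 coding genes, and a match with at least 4 pairs in 10.1%. For these shares only the longest coding transcript with a RefSeq counterpart was searched per gene, over its whole length including the coding part. For the 10 genes all transcripts with such a counterpart were searched. *Tfrc* was the 1 coding gene with at least 4 matches of 5 pairs. *Slc11a2* has 2 transcripts with a RefSeq counterpart. Whether both hold the element was not recorded, and the value per gene does not separate them. A match is a run of letters that can fold, not a measured site.

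*Tfrc*, on chromosome 16 from 32608920 to 32632794 (plus strand), had 137 FPKM in KPR- against 80.2 FPKM in KPR restored. The KPR restored library was lower, with a difference of -0.78 in log2(FPKM + 0.005), which is 1.71-fold. About 14021 and 8407 fragments were estimated to stand behind these values, giving a 95% counting interval of -0.82 to -0.74. Such intervals are exact Clopper-Pearson limits on estimated fragments, which set 1 library against the other and take in no error but that of counting. *Slc11a2*, which encodes the divalent metal transporter (chromosome 15, 100387898 to 100425072, minus strand), had 43.0 and 38.9 FPKM, a log2 difference of -0.14 with an interval of -0.21 to -0.08. The 2 import genes therefore differed in size, and the FPKM ratio of *Tfrc* to *Slc11a2* went from 3.20 to 2.06, a log2 change of -0.63 (95% counting interval -0.71 to -0.56).

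The ferritin chains were the most abundant of the 10 mRNAs. *Fth1*, which encodes the heavy chain that oxidizes iron, spans 9980598 to 9985098 of chromosome 19 (plus strand), with 923 FPKM in KPR- against 2031 FPKM in KPR restored. Its log2 difference of 1.14 (counting interval 1.12 to 1.16) is 2.20-fold, and its rank by level among 11231 genes with a mean of at least 1 FPKM moved from 94 to 14. *Ftl1*, the light chain, had 1678 and 2702 FPKM, a log2 difference of 0.69 (interval 0.67 to 0.71), and its rank moved from 30 to 6. The light chain stayed the more abundant of the pair, and the ratio of *Fth1* to *Ftl1* went from 0.550 to 0.752, a log2 change of 0.45 (interval 0.42 to 0.48).

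Together the 2 chains took 2601 of the summed FPKM in KPR- and 4733 in KPR restored, or 0.499% and 0.904% of the totals. Of 147 genes with a mean of at least 500 FPKM, 4 were higher and 6 were lower by 0.5 or more in KPR restored, and the median difference of the 147 was 0.03. The 4 higher genes were *Fth1*, *Ftl1* and the small nucleolar RNAs *Snord33* and *Snord35a*, named after their values were seen. The small nucleolar RNAs were listed at 0 in KPR- and at 1745 and 1139 FPKM in KPR restored. In poly(A)-selected libraries with a mean fragment length of 210 bases, the values of such short RNAs are uncertain. *Ftl1* lies on chromosome 7 from 45457944 to 45459884 (minus strand), and 60.4% of the 100-base windows of its mRNA were also found in transcripts of 4 other annotated genes, pseudogenes among them. Reads from such copies could be assigned to either, so its level is uncertain. For *Fth1* the share was 0.573%.

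*Ncoa4*, the receptor that delivers ferritin to lysosomes for breakdown, differed in the same direction as the ferritin chains. It had 31.8 FPKM in KPR- against 54.0 FPKM in KPR restored, which is a log2 difference of 0.76 (interval 0.70 to 0.83), or 1.70-fold. Its ratio to the summed ferritin chains went from 0.0122 to 0.0114, a log2 change of -0.10 (interval -0.17 to -0.03). The gene spans 32159865 to 32179855 of chromosome 14 (plus strand), and 39.8% of its 100-base windows were shared with the annotated gene *Gm6768*, so the split of reads between them is uncertain.

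*Slc40a1*, which encodes ferroportin, the known exporter of cellular iron, had the lowest level of the 10 genes and the largest difference downwards. It spans 45908068 to 45926523 of chromosome 1 (minus strand), with 4.25 FPKM in KPR- against 1.71 FPKM in KPR restored. The log2 difference was -1.31 (interval -1.63 to -1.0), or 2.49-fold lower, from about 293 and 121 fragments. With the shortest coding transcript, of 370 bases, only about 15 and 6 fragments would stand behind these values, and the interval of -3.01 to 0.09 spans 0. Among 1168 genes with a mean of 2 to 4 FPKM, 14.5% were lower by 0.5 or more, a looser mark than the difference of *Slc40a1*. Of the 11231 genes with a mean of at least 1 FPKM, 75 had a log2 difference below its -1.31.

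The sensors had small differences. *Aco1*, whose protein is a cytosolic aconitase when it holds an iron-sulfur cluster and an RNA-binding protein when it does not (chromosome 4, 40143081 to 40198338, plus strand), had 23.8 and 20.7 FPKM, a log2 difference of -0.21 (interval -0.30 to -0.11). *Ireb2*, whose protein is degraded when iron is plentiful (chromosome 9, 54863789 to 54912530, plus strand), had 17.1 and 15.4 FPKM, a log2 difference of -0.15 (interval -0.24 to -0.06). Both were slightly lower in KPR restored, and the ratio of *Aco1* to *Ireb2* was 1.39 and 1.34, with a log2 change of -0.05 whose interval of -0.18 to 0.08 spans 0. These are mRNA levels, and the binding activity of the sensors was not measured in these libraries.

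The heme oxygenases differed most from each other. *Hmox1*, on chromosome 8 from 75093621 to 75100589 (plus strand), had 15.1 FPKM in KPR- against 56.2 FPKM in KPR restored, or 3.73-fold, and only 64 of the 11231 genes had a larger log2 difference than its 1.90 (interval 1.75 to 2.05). *Hmox2*, on chromosome 16 from 4726361 to 4766742 (plus strand), had 21.9 and 20 FPKM, a log2 difference of -0.13 whose interval of -0.28 to 0.02 spans 0. *Hmox2* was the more abundant of the pair in KPR- and *Hmox1* in KPR restored, with a ratio of *Hmox1* to *Hmox2* of 0.688 and 2.81 and a log2 change of 2.03 (interval 1.81 to 2.24). On the opposite strand, *Cdip1* shares 892 exon bases with *Hmox2*, and whether the authors' counting used strand is not given in the sources used here.

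**Figure D1:**
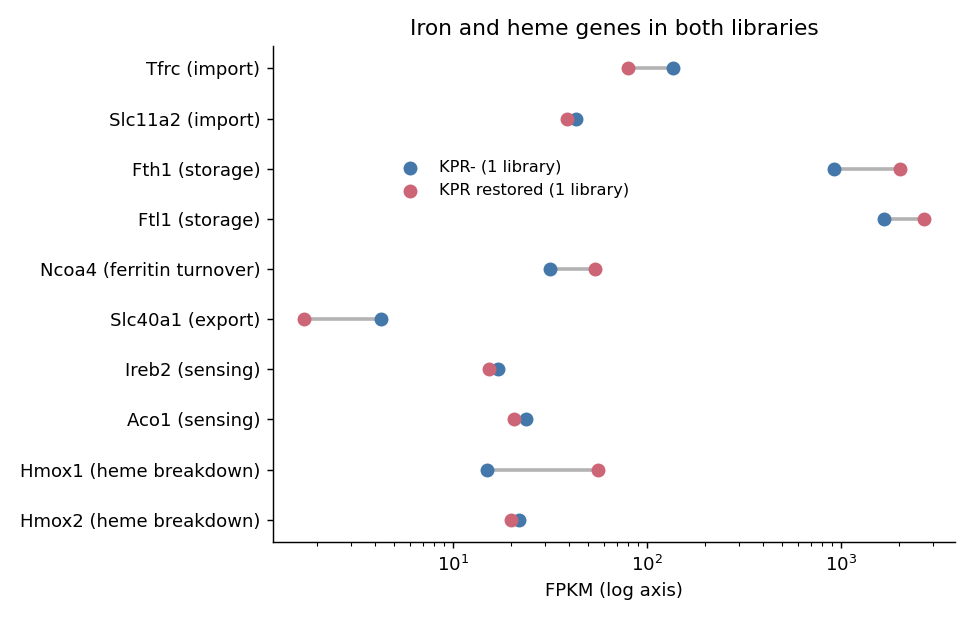
FPKM of the 10 genes on a log axis, 1 point for the KPR- library and 1 for the KPR restored library, joined by a grey line. *Fth1*, *Ftl1*, *Ncoa4* and *Hmox1* lie further right in KPR restored, *Tfrc* and *Slc40a1* further left, and the points of the other genes nearly coincide.

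Of the 10 genes, 4 were higher by 0.5 or more in KPR restored (*Hmox1*, *Fth1*, *Ncoa4* and *Ftl1*), where 12.1% of the 11231 genes with a mean of at least 1 FPKM were. A further 2 genes were lower by 0.5 or more (*Slc40a1* and *Tfrc*), where 9.29% of all genes were. The other 4 had differences between -0.21 and -0.13. The median of the 10 was -0.14, beside 0.0086 over all genes (quartiles -0.23 and 0.27). The counting interval excluded 0 for 9 of the 10 genes, all but *Hmox2*, but at this depth it did so for 60.3% of 13441 genes that had 10 or more estimated fragments in the 2 libraries together. The genes were grouped with these values known, so the counts are no support for a change of the group.

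**Figure D2:**
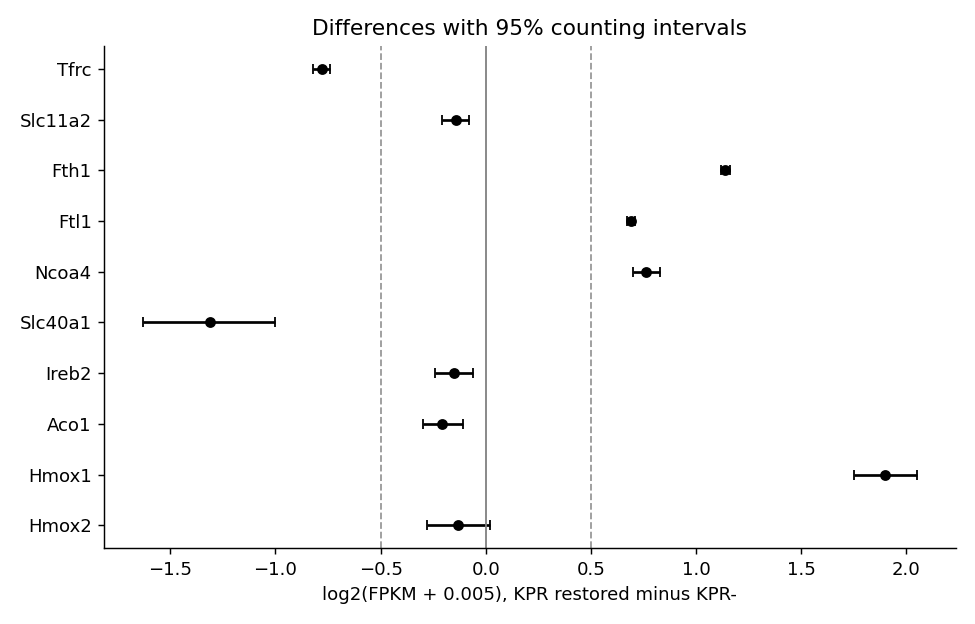
Log2 differences of the 10 genes, KPR restored minus KPR-, with 95% counting intervals as bars and dashed lines at -0.5 and 0.5. Only the bar of *Hmox2* crosses 0, and *Slc40a1*, with the fewest fragments, has the widest.

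The genes that differed stood at levels far apart. The ferritin chains, at ranks 94 and 30 in KPR-, and *Ncoa4*, at rank 2860, differed in the same direction. *Tfrc* stood at rank 588 in KPR- and 1056 in KPR restored, and *Hmox1* moved from 5222 to 1599. The summed FPKM of *Fth1* and *Ftl1* was 18.9 times that of *Tfrc* in KPR- and 59.0 times in KPR restored, a log2 change of 1.64 (interval 1.60 to 1.68).

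**Figure D3:**
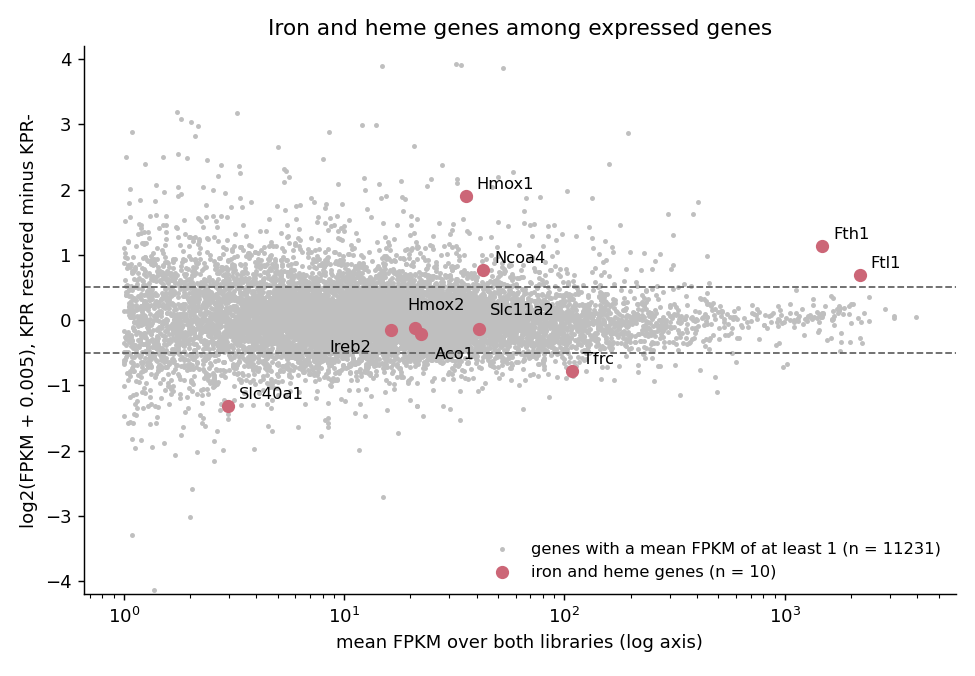
Log2 difference against mean FPKM (log axis) for 11231 genes in grey and the 10 iron and heme genes in red, with dashed lines at -0.5 and 0.5. *Fth1* and *Ftl1* stand above the narrow band of very abundant genes, and 20 genes with a difference beyond 4.2 either way lie outside the axis.

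The mRNA levels of the carriers of an IRE did not share a direction. Binding at a 5′ element acts on translation, which mRNA levels do not show, and control by iron was not tested. With the element in the 5′ UTR, the differences were 1.14 for *Fth1*, 0.69 for *Ftl1* and -1.31 for *Slc40a1*, and with elements in the 3′ UTR they were -0.78 for *Tfrc* and -0.14 for *Slc11a2*. Other mRNAs with a described element added little. *Cdc14a* had 5.5 and 3.85 FPKM (log2 difference -0.51), and *Epas1* had 0.320 and 0.604 FPKM. *Alas2*, the erythroid enzyme of heme synthesis, had 0.0794 and 0.155 FPKM from about 3 and 6 fragments.

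Most other genes of iron and heme handling differed little between the libraries. In 8 lists of such genes and of their regulators, 79 of 93 genes had a mean of at least 1 FPKM. Of these, 13 (16.5%) were higher and 5 (6.33%) were lower by 0.5 or more, with a median of 0.08. With the libraries scaled to the same upper quartile, 9 were higher and 6 lower. The counterpart values over all genes were 12.1%, 9.29% and 0.0086. The list that stood furthest from 0 was that of transcription factors known to act on *Hmox1* and ferritin genes and their partners. Of its 9 expressed genes 6 were higher, 0 were lower and the median was 0.53. Each other list had 0 to 3 higher genes, so the share of 16.5% rests in large part on this list of regulators. The lists were written with earlier results of these data known, so their counts are given as a description.

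Within that list, *Atf4*, a stress-induced activator, had 145 FPKM in KPR- against 446 FPKM in KPR restored, which is a log2 difference of 1.62 (interval 1.58 to 1.67). *Maff*, a small Maf protein that pairs with activators and repressors at such genes, had 27.8 and 50.2 FPKM, a log2 difference of 0.85. *Nfe2l2*, which encodes the oxidative stress activator NRF2, had 63.9 and 109 FPKM (log2 difference 0.77), and *Nfe2l1* had 65.3 and 116 FPKM (0.83). The other 2 higher genes, *Hif1a* (0.53) and *Mafk* (0.52), were close to the threshold, and with the libraries scaled to the same upper quartile 4 genes were higher. *Keap1*, the adaptor that leads NRF2 to degradation, had 23.7 and 23.3 FPKM, and *Bach1*, the heme-binding repressor of *Hmox1*, had 6.74 and 7.87 FPKM. *Bach2* was near 0, with 0.0607 and 0.0375 FPKM. These are mRNA levels. The activity of the factors was not measured, and their part in the levels of *Hmox1* and the ferritin chains was not tested.

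**Figure D4:**
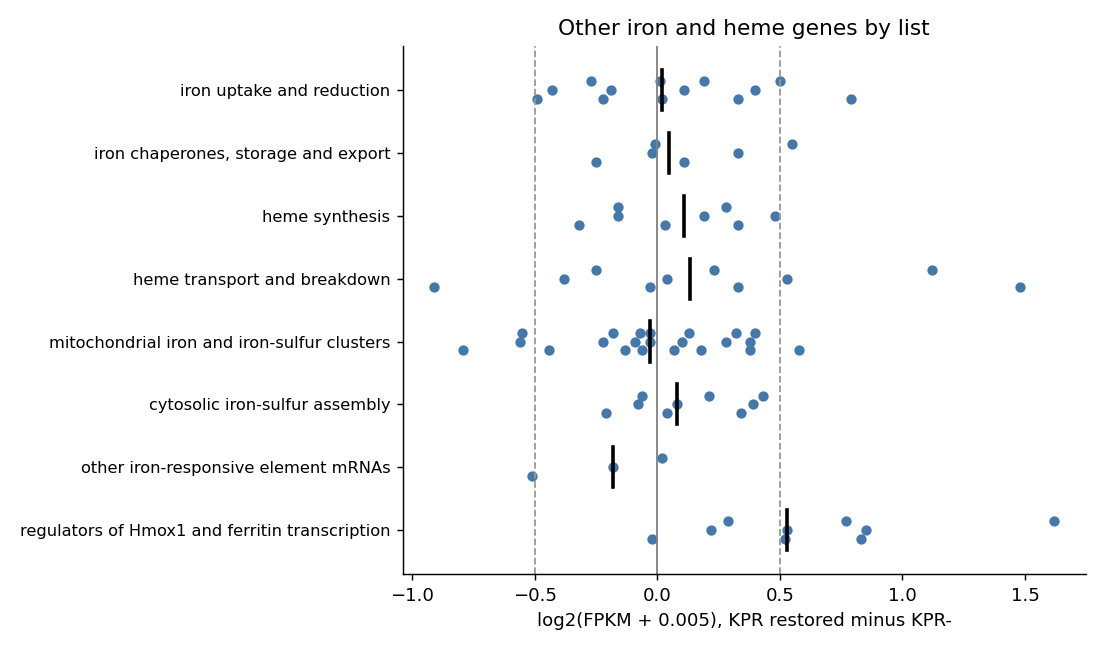
Log2 difference of each gene with a mean of at least 1 FPKM in 8 lists of iron and heme genes, 1 point per gene, with the list median as a black bar and dashed lines at -0.5 and 0.5. The median is 0.53 for the regulators of *Hmox1* and ferritin transcription and between -0.18 and 0.14 for the other lists.

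In the list of heme transport and breakdown, which leaves out the heme oxygenases, the largest difference was that of *Blvrb*, biliverdin reductase B. It had 4.31 FPKM in KPR- against 12.1 FPKM in KPR restored, which is a log2 difference of 1.48 (interval 1.10 to 1.88), while *Blvra*, the reductase that acts on the biliverdin made by heme oxygenase, had 25 and 31.3 FPKM (0.33). In this list, 3 of 10 genes were higher and 1 was lower, where 12.1% and 9.29% of all expressed genes were. *Hpx*, which encodes the heme carrier hemopexin, had 2.12 and 4.62 FPKM, a log2 difference of 1.12, and *Abcb6*, a porphyrin transporter, had 7.94 and 11.5 FPKM (0.53). *Abcg2*, a transporter that can export porphyrins, was lower, with 11.4 and 6.07 FPKM (-0.91), and *Pgrmc2*, a heme chaperone, had 44.8 and 34.4 FPKM (-0.38).

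Of the 8 expressed heme synthesis genes, 0 were higher and 0 were lower by 0.5 or more, beside 12.1% and 9.29% of all expressed genes. Among them were *Ppox*, from 13.0 to 18.1 FPKM (0.48), *Alas1*, the first enzyme of the path, from 9.87 to 12.4 FPKM (0.33), and *Alad*, from 14.7 to 13.2 FPKM (-0.16).

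Among 13 expressed genes of iron uptake and reduction, 2 were higher, which is near the share of 12.1% over all expressed genes. *Lcn2*, which binds iron-carrying siderophores, had 19.2 and 33.2 FPKM, a log2 difference of 0.79 (interval 0.59 to 1.01), and *Mcoln1*, a lysosomal channel that passes iron, had 20.8 and 29.5 FPKM, a difference of 0.50 at the threshold itself. With the same FPKM total, the same upper quartile or centring on the median gene, 1 gene of this list was higher and 1 was lower, and with a pseudocount of 1, 1 was higher. The metal importer *Slc39a14* had 17 and 12.1 FPKM (-0.49), and the reductase *Steap2* had 27.9 and 20.8 FPKM (-0.43). *Trf*, transferrin itself, had 58.7 and 63.1 FPKM. Of the chaperones and storage genes, *Pcbp1*, which hands iron to ferritin, had 284 and 415 FPKM (0.55), *Pcbp2* 145 and 143 FPKM, and *Fbxl5*, the iron-sensing adaptor for degradation of the *Ireb2* protein, 37.8 and 47.6 FPKM (0.33). *Herc2*, a ubiquitin ligase, had 9.82 and 8.28 FPKM (-0.25), and *Ftmt*, *Hamp* and *Heph* were listed at 0 in both libraries.

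Because *Runx3* is the gene restored, the promoters were searched for the RUNX letters TGTGGT or TGCGGT on both strands, in RefSeq promoter windows (GRCm38.p6) that run from upstream of each start to just inside the transcript. Windows of 7 of the 10 genes were searched, 13 in all, and *Hmox1*, *Slc40a1* and *Slc11a2* were not searched. Of the 13 windows, 2 held a match, 1 of *Tfrc* and 1 of *Ncoa4*, where 22.4% of 32851 promoter windows did. The matches are printed with the motif in capitals, at chr16:32608662-32608691 and chr16:32608736-32608765 for *Tfrc* and chr14:32165665-32165694 for *Ncoa4*, all on the plus strand.
Tfrc at -222: tttcgaacttgcACCGCAgggttgggtgtc
Tfrc at -148: gcgggggaggggTGCGGTggagaaagcgag
Ncoa4 at -112: ccacggaggcccTGTGGTgggcggagtagc

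Positions are bases from the start of the window's transcript, and all 3 matches lie upstream of it. The first *Tfrc* match is read on the opposite strand, and 1 of the 2 genes with a match was higher and the other lower in KPR restored. The antioxidant response letters TGACNNNGC were found in 1 of the 13 windows, of *Ncoa4*, and in 12.4% of all windows. The hypoxia response letters ACGTG were found in 4, of *Ncoa4* and *Tfrc*, and in 19.6% of all windows. The 2 windows of *Tfrc* overlap and hold the same site, at chr16:32608882-32608911, so it is counted in both. Distal enhancers were not searched.

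*Runx3* itself had 0.348 and 0.349 FPKM, from about 28 and 29 fragments, a log2 difference of 0.01 (interval -0.79 to 0.81), which leaves the labels of the 2 libraries unchecked by it. Higher and lower refer throughout to the library labelled KPR restored. The epithelial markers *Krt8*, *Krt18*, *Krt19*, *Epcam*, *Cdh1* and *Cldn4* were all expressed, with 4988 and 4827 FPKM in sum, most of it from keratins, and *Cldn4* had 107 and 202 FPKM (log2 difference 0.92). Of 7 alveolar and club cell markers 0 had a mean of 1 FPKM and *Sftpc*, *Sftpb*, *Sftpa1* and *Scgb1a1* were listed at 0 in both. Macrophages and erythroid cells are known for high levels of several of the iron genes. Of 8 macrophage markers, *Adgre1*, *Lyz2* and *Marco* were listed at 0 in both libraries and *Ptprc* at 0 and 0.00892 FPKM, while *Mrc1* had 37.9 and 29.3 FPKM, *Cd68* 3.08 and 6.78 FPKM and *Csf1r* 2.68 and 1.19 FPKM. The 8 markers summed to 43.7 and 37.3 FPKM, and the 7 erythroid markers found in the files to 0.470 and 0.432 FPKM. Of 6 fibroblast markers, *Col1a1* was expressed, with 12.2 and 4.21 FPKM (-1.53), and of 5 endothelial markers *Kdr*, with 1.1 and 2.05 FPKM (0.89). The part of such markers in the differences was not tested, and in RNA from a whole culture fewer cells of a type and less RNA per cell cannot be told apart.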

How the data were processed

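mRNA sequencing of 2 libraries, 1 of KPR- and 1 of KPR restored cells, was examined. The authors selected poly(A) RNA, made directional libraries, sequenced paired ends of 100 bases, trimmed the reads, mapped them using TopHat (mm10 in the submitters' notes) and deposited FPKM values estimated using Cufflinks. Their methods also name a geometric normalization of the read counts using EdgeR, and whether the deposited values carry it is not stated. The depths below are therefore those that the FPKM values imply. Versions and annotation are not given in the sources used here. The 10 genes, the lists and the alternatives were chosen with earlier results of these data known.

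Differences are log2(FPKM + 0.005) in KPR restored minus KPR-, without further scaling, and a threshold of 0.5 either way was applied. The pseudocount understates differences of genes near 0. Depth was estimated from the steps that whole fragments leave in low FPKM values of 3090 genes with a single GENCODE M21 transcript of at least 1000 bases. It came to 21.8 M (KPR-) and 22.4 M (KPR restored) fragments with a mean length of 210 bases. Of the 3090 genes, 462 (KPR-) and 486 (KPR restored) had values between 0.5 and 5.5 fragments. Of these values, 81.6% and 83.3% lay within 0.1 of a whole number. The fit sought closeness to whole numbers in the same values, so these shares are no separate check on it. Fragments per gene used the longest transcript with a RefSeq counterpart, so they are upper estimates. Intervals of ratios between genes use the normal approximation on log fragments. Of 23183 symbols, 22148 matched GENCODE directly and 665 through an older symbol.

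The rule for naming genes took, per list, the 2 with the largest positive and the 2 with the largest negative difference of log2(FPKM + 1). Some genes the rule names are not reported here. *Nfe2l2*, *Nfe2l1*, *Hif1a*, *Mafk*, *Bach1*, *Blvra*, *Abcb6*, *Trf*, *Cisd2*, *Glrx5*, *Iscu* and *Nfs1* were named after their values were seen, as were the motifs. Scripts ran in Python 3.11.15 with scipy 1.17.1, pandas 2.3.3, numpy 2.4.6 and matplotlib 3.10.9.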

Additional observations from a re-analysis of the deposited data

How the results depend on the processing

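All 50 values of the 10 log2 differences under 2 other pseudocounts, the same FPKM total (TPM), the same upper quartile and centring on the median gene kept their direction, and the scalings shifted all differences by -0.042 to -0.0064. With the same upper quartile, *Fth1* had a difference of 1.1 and *Ftl1* of 0.65, and 9 in place of 13 genes of the other iron lists were higher. With a pseudocount of 1, *Slc40a1* had a difference of -0.96. A threshold of 1 left 2 of the 10 genes higher and 1 lower, and 3 genes of the other iron lists higher and 0 lower, which follows from the stricter threshold. With a mean of at least 5 FPKM, *Slc40a1* dropped out and 1 gene was lower. With the shortest coding transcript, fewer fragments stand behind each value, 6 in place of 9 counting intervals excluded 0, and the upper limits became 0.18 for *Slc11a2*, 0.09 for *Slc40a1* and 0.16 for *Ireb2*. No paired analysis was possible because there is 1 library per condition, and no library could be left out. Depth limits *Slc40a1* most, and the variation between cultures is unknown for every gene.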

Other observations

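Genes that build iron-sulfur clusters, the main use of iron in mitochondria beside heme, differed in both directions. Of 22 genes of mitochondrial iron and iron-sulfur clusters, all with a mean of at least 1 FPKM, 1 was higher and 3 were lower by 0.5 or more in KPR restored, and the median was -0.03. Of the lower genes, *Cisd2* had 15.6 and 10.6 FPKM, a difference on the log2 scale of -0.55 (95% counting interval -0.68 to -0.41). *Hscb*, a cochaperone that hands over new clusters, was the higher gene, with 9.64 and 14.4 FPKM (0.58, interval 0.25 to 0.92), and *Fdx1*, a ferredoxin, had 11.0 and 14.5 FPKM (0.40). The desulfurase gene *Nfs1* had 25.3 and 24 FPKM, the scaffold gene *Iscu* 29.1 and 25 FPKM, and *Glrx5* 67.6 and 61.7 FPKM.

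Of 9 genes of cytosolic iron-sulfur assembly, 0 were higher and 0 were lower by 0.5 or more, with a median of 0.08. The 2 largest positive differences were those of *Ciao1*, with 13.9 and 18.7 FPKM (0.43), and *Fam96b*, with 40.8 and 53.4 FPKM (0.39). *Nubp1* had 15.1 and 13.0 FPKM (-0.21) and *Mms19* 25.9 and 24.5 FPKM (-0.08). The background shares, 12.1% higher and 9.29% lower over all expressed genes, hold for these lists too.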
